A study of Mus musculus with 16 samples.

Results

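The glutathione and antioxidant genes described here are a list of 37 genes that make, use or recycle glutathione, reduce peroxides, or switch such genes on. The members were chosen by name: every probe of the array whose annotated gene symbol was on the list was taken. Of the 37 genes, 32 had a probe, out of 16593 genes with a symbol on the array, and all 32 were measured above background. They were read by 54 probes, of which 47 passed the filter on dim probes. Gsr, Prdx5, Prdx6, G6pdx and Pgd had no probe among those annotated here, so glutathione reductase and the NADPH-forming enzymes G6pdx and Pgd were not measured.

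The study used 16 Illumina bead arrays of RNA from dorsal skin of mice aged 15 days on a mixed C57/BL6;129Ola background. The 7 mutant arrays carried the genotype K14-cre; Gab1fl, and the 9 others were labelled control, with no alleles named for them. The K14 promoter drives the Cre recombinase in basal keratinocytes of the epidermis and hair follicle, so that the floxed Gab1 gene, which encodes an adaptor protein of growth factor receptors, is recombined in those cells and their descendants and not in dermal cells. The study's design text speaks of cells sorted for alpha6 integrin, a surface protein of basal keratinocytes, while the tissue label names whole dorsal skin, and the labels do not settle which was hybridised.

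Glutathione is a small thiol peptide that cells use to reduce peroxides and to tag reactive compounds for export. The transcription factor Nrf2, encoded by Nfe2l2, is kept low by its partner Keap1 and, when released by electrophiles or oxidants, switches on many genes of glutathione synthesis, thioredoxin recycling and detoxification. In skin this system is known for protecting keratinocytes from oxidants, and Nrf2 targets are among the genes that increase as keratinocytes move into the upper epidermal layers.

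Before the groups were compared, the arrays were set against each other, because several of them held nearly the same values. Within each labelled group, arrays that correlated above 0.99 were joined, which gave 2 mutant sources, of 3 and 4 arrays, and 3 control sources of 3 arrays each. Arrays of 1 source correlated at 0.994 to 0.996, arrays of different sources of a group at 0.935 to 0.986, and arrays of different groups at 0.933 to 0.964. The labels do not say whether a source is an animal, a litter or a pool, so the p-values below measure only the spread between these 5 sources. Every source was present on both slides. The median raw signal of the arrays lay between 175.9 and 223.5, and 52.2% to 57.0% of probes were detected on each. Gab1 itself, read by 1 probe, was at 48.9% of the control level in the mutant sources, with every mutant array (11.27 to 12.01 log2 units) below every control array (12.60 to 12.78). Its adjusted p in the fit across all probes was 0.239, and an exact two-sided permutation test over sources gave p = 0.1, the smallest that 10 splits allow when 2 sources are compared with 3.

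No antioxidant gene passed the test between mutant and control skin, and members lay on both sides of the controls. With limma on source means, 0 of the 32 members had an adjusted p below 0.05, against 0.0499% of all 10013 genes measured. None of their 47 probes did, against 0.0552% of all probes. An unadjusted limma p below 0.05 was found for 5 of the 47 (2 higher, 3 lower), and for 1760 of all 14504 probes in either direction. At an unadjusted p below 0.05, Gclc was higher and Gstm1 lower, 1 gene each way, where 4.89% of all genes were higher and 7.33% lower. The median log2 difference, mutant minus control, was -0.003 over the members and 0.002 over all genes. Groups by role had medians on both sides, from -0.336 for the glutathione peroxidases to 0.415 for the thioredoxin and peroxiredoxin group. The members' differences ran from -1.22 for Gsta3 to 0.75 for Hmox1. In RNA from a tissue, fewer cells of a type and less RNA per cell cannot be told apart.

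In 7 members both mutant sources lay above all 3 control sources (Gsto1, Gclc, Gclm, Txn1, Nfe2l2, Keap1 and Nqo1), which is 21.9% of 32 against 14.1% of all genes. In 5 members both lay below (Gstm1, Gstt2, Gstk1, Gpx1 and Gpx4), 15.6% against 15.3% of all genes. In the other 20 members the groups overlapped. The gap between the groups was wider than the SD between arrays of a source for Gclc and Txn1 on the higher side, against 8.46% of all genes, and for Gstm1 on the lower side, against 10.3%. All 7 mutant arrays lay above all 9 control arrays for Gclc, against 5.74% of genes, and below them for Gstm1, against 7.36%.

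**Figure D1:**
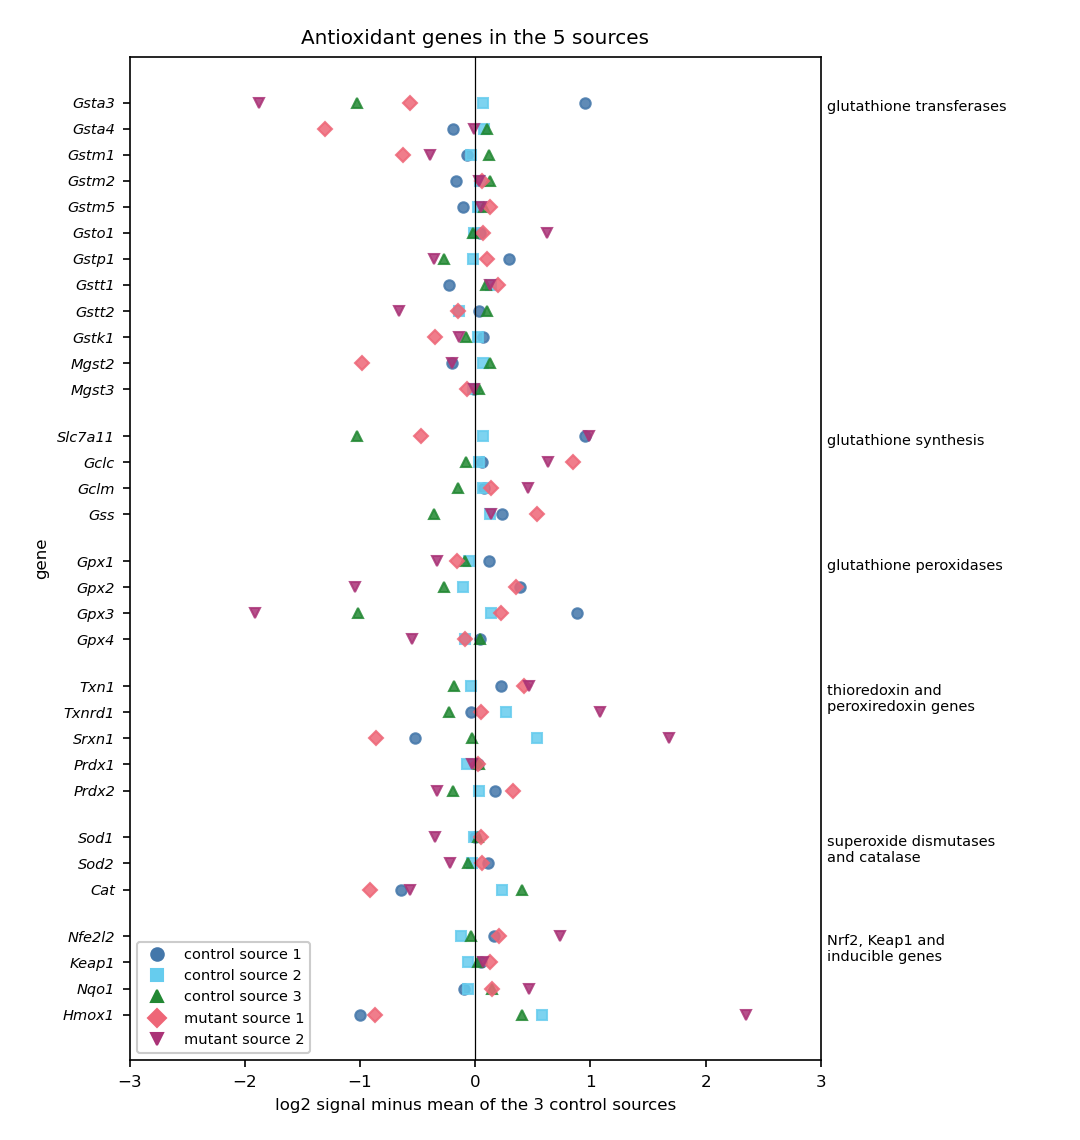
Level of each of the 32 measured antioxidant genes in each source, as the log2 level minus the mean of the 3 control sources, grouped by role. The 2 mutant sources stand far apart for Hmox1, Srxn1 and Gpx3, and lie together on 1 side of the controls for Gclc and Gstm1.

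The plot of levels by source shows that most members stayed close to the control mean, while a few had mutant sources on opposite sides of it. Values below are normalised log2 signals averaged over the arrays of a source, errors are SD over sources (n = 2 mutant and 3 control), and differences carry the SE of the limma fit. Levels are comparable between sources for 1 probe, not between genes.

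Among the regulators and the inducible detoxifying enzymes, none of the 4 genes passed the test. Both mutant sources lay above the controls in 3 of them, where 14.1% of all genes did, and in each of the 3 by less than the SD between arrays. Nfe2l2, the gene of Nrf2, was at 9.74, 9.46 and 9.54 in control sources 1, 2 and 3 and at 9.79 and 10.32 in mutant sources 1 and 2. Both mutant sources were above all controls. The difference was 0.47 (SE 0.23, limma adjusted p = 0.483).

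Keap1, the adaptor that sends Nrf2 to degradation, was at 10.86, 10.75 and 10.83 in the controls and 10.94 and 10.88 in the mutants. The mutant sources were higher by 0.10 (SE 0.14, limma adjusted p = 0.846), and the 3 other Keap1 probes differed by 0.17, 0.23 and 0.32. Nqo1, a quinone reductase and a standard Nrf2 target, was at 7.85, 7.89 and 8.10 in the controls and at 8.10 and 8.42 in the mutants. The first mutant source met the highest control, and the group means were 0.31 apart (limma adjusted p = 0.615).

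Hmox1, the heme-degrading heme oxygenase, had the widest spread of the list. It was at 10.61, 12.19 and 12.02 in control sources 1, 2 and 3, at 10.74 in mutant source 1 and at 13.96 in mutant source 2. Mutant source 2 was above every control and mutant source 1 lay beside the lowest of them, so the groups overlapped. The mutant mean of 12.35 ± 2.27 stood against 11.61 ± 0.87, a difference of 0.75 (SE 1.01, limma adjusted p = 0.834).

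In glutathione synthesis the 4 measured genes had a median difference of 0.321, and in Gclc every mutant array was above every control array. Gclc encodes the catalytic subunit of glutamate-cysteine ligase, the enzyme that starts glutathione synthesis. It was at 6.84, 6.81 and 6.70 in the control sources and at 7.63 and 7.41 in the mutant sources. Both mutant sources were clear of the controls: the mutant arrays ran from 7.29 to 7.76 and the control arrays from 6.55 to 7.02. The mean level was 1.67-fold that of the controls, a log2 difference of 0.74 (SE 0.18), and the limma adjusted p was 0.27. For Gclc, whose signal is low, the difference was 0.40 without background correction and in the authors' normalized table.

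Gclm, the modifier subunit of the same ligase, was at 11.78, 11.77 and 11.55 in the controls and at 11.84 and 12.16 in the mutants, a difference of 0.30 (SE 0.17, limma adjusted p = 0.554). Its lower mutant source stood just above the highest control. Gss, the synthetase that completes glutathione, differed by 0.34 (SE 0.27, limma adjusted p = 0.682) on its brightest probe, and its 2 other probes gave 0.71 and 0.26. On the probe with 0.71, all mutant arrays were above all control arrays (limma adjusted p = 0.39).

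Slc7a11, the cystine importer that supplies the cysteine for glutathione, was at 9.64, 8.76 and 7.66 in the controls and at 8.22 and 9.68 in the mutants. The control sources alone spanned nearly as much as all 5 sources, and the group means differed by 0.27 (SE 0.70, limma adjusted p = 0.924). Slc7a11 is not among the genes with the largest differences and is given in full because of the gap between its sources.

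In the thioredoxin, sulfiredoxin and peroxiredoxin group, Txn1 was the 1 gene of 5 whose groups did not overlap. Txn1, the cytosolic thioredoxin that hands electrons to peroxiredoxins, was at 9.95, 9.69 and 9.55 in the controls and at 10.15 and 10.20 in the mutants. Mutant and control sources were apart by 0.20, a little more than the array SD of 0.16. The difference was 0.45 (SE 0.19, limma adjusted p = 0.433).

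Txnrd1, the reductase that recharges thioredoxin, was at 6.62, 6.93 and 6.43 in the controls and at 6.71 and 7.74 in the mutants. The difference of 0.57 (SE 0.35, limma adjusted p = 0.599) came from mutant source 2, since source 1 lay within the control range. Srxn1, the sulfiredoxin that repairs overoxidised peroxiredoxins, was at 9.33, 10.39 and 9.82 in the controls, at 8.99 in mutant source 1 and at 11.53 in mutant source 2. Mutant source 1 was the lowest of the 5 and mutant source 2 the highest. The difference was 0.42 (SE 0.77, limma adjusted p = 0.886), and the 2 other Srxn1 probes showed the same order of the mutant sources.

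Prdx1, an abundant peroxiredoxin that removes hydrogen peroxide, was level, at 14.50 to 14.60 in the controls and 14.59 and 14.54 in the mutants (limma adjusted p = 0.999). Prdx2, its close relative that is most abundant in red blood cells, was read by 3 probes that did not give the same picture. The brightest probe was at 14.63, 14.49 and 14.27 in the controls and at 14.79 and 14.13 in the mutants, a difference of -0.01 (SE 0.22, limma adjusted p = 0.996).

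The other Prdx2 probes were lower in the mutants. The second was at 9.45, 9.24 and 9.06 in the controls and at 8.03 and 7.52 in the mutants, a difference of -1.47 (SE 0.24, limma adjusted p = 0.207). The faintest was at 7.61, 7.26 and 7.30 in the controls and at 5.65 and 5.74 in the mutants, a difference of -1.70 (SE 0.19, limma adjusted p = 0.156). On both, every mutant array was below every control array. On the faintest probe the signal was detected on 9 of 9 control arrays and on 1 of 7 mutant arrays, so that the mutant level is close to background.

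In 10 alternatives, chosen after seeing the data, the values were changed or a source was left out. Over them the difference of the brightest Prdx2 probe ranged from -0.33 to 0.32. That of the second ranged from -1.73 to -1.09 and that of the faintest from -1.76 to -0.75. The mean over the Prdx2 probes differed by -1.06, so the place of Prdx2 among the members depends on reading it from its brightest probe. All 3 probes are annotated with the gene symbol Prdx2, and which of them reads Prdx2 best was not tested. The erythroid marker list, which holds haemoglobin genes, averaged 7.56, 9.71 and 10.88 in the controls and 8.35 and 9.47 in the mutants. The part of red blood cells in the Prdx2 values was not tested.

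**Figure D2:**
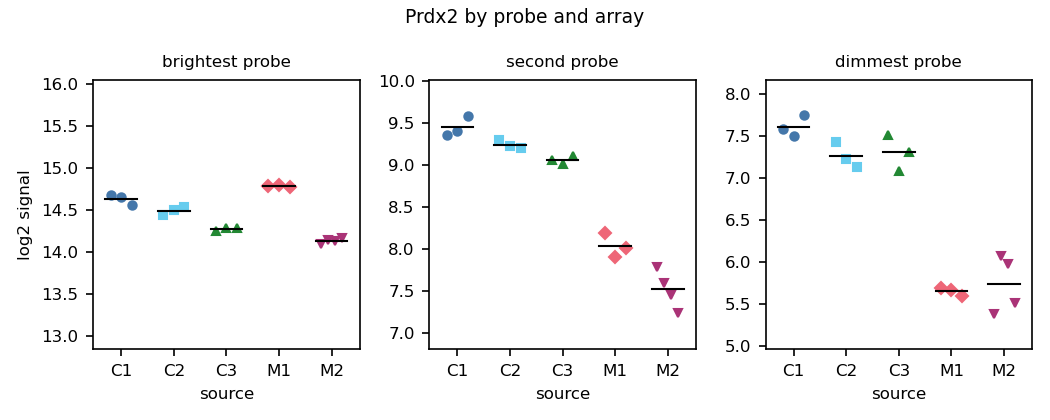
Normalised log2 signal of the 3 Prdx2 probes on each of the 16 arrays, by source. On the brightest probe the groups overlap, while on the others all 7 mutant arrays lie below all 9 control arrays, by differences of -1.47 and -1.70 between group means.

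All 4 glutathione peroxidases of the list had a lower mean in the mutants, none past the test. Outside the list, the family members Gpx7 and Gpx8 differed by -0.54 and 0.02. Gpx1, the cytosolic peroxidase, was at 15.38 to 15.59 in the controls and at 15.31 and 15.14 in the mutants, a difference of -0.24 (limma adjusted p = 0.465). Gpx4, the enzyme that reduces lipid peroxides in membranes, was at 11.84, 11.71 and 11.84 in the controls and at 11.71 and 11.25 in the mutants. Its first mutant source met the lowest control, and the difference of -0.32 (SE 0.18, limma adjusted p = 0.564) was not seen on its fainter probe, at -0.01.

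Gpx3, the secreted plasma peroxidase, was at 10.89, 10.15 and 8.99 in the controls and at 10.23 and 8.10 in the mutants. Mutant source 1 lay within the control range and mutant source 2 under it, and the controls themselves were far apart. The groups differed by -0.85 (SE 0.80, limma adjusted p = 0.738). Gpx2, an epithelial peroxidase and Nrf2 target, was at 8.97, 8.47 and 8.31 in the controls and at 8.93 and 7.54 in the mutants. Again 1 mutant source matched the controls and the other was lowest, with a difference of -0.35 (SE 0.46, limma adjusted p = 0.823).

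The glutathione transferases attach glutathione to electrophiles, and their 12 measured genes had a median difference of -0.187, with 3 below and 1 above the controls in both mutant sources, where 15.3% of all genes lay below and 14.1% above. Of the 3, Gstm1 alone was lower by more than the SD between arrays. Gstm1, of the mu class, was at 10.88, 10.91 and 11.07 in the controls and at 10.32 and 10.56 in the mutants. Both mutant sources were below every control, and so was every mutant array. The level was 0.701 of the control level, a log2 difference of -0.51 (SE 0.16, limma adjusted p = 0.336), while a second, much fainter Gstm1 probe differed by -0.04 and the mean over the Gstm1 probes by -0.28. The mu-class genes are close copies of each other, so that a probe may read more than 1 of them. Gstm2 and Gstm5 differed by 0.04 and 0.09, with overlapping groups.

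Gsta3, an alpha-class transferase, had the largest difference among the probes that stand for a gene. It was at 10.38, 9.50 and 8.40 in the controls and at 8.86 and 7.55 in the mutants. Mutant source 1 lay inside the wide control range and mutant source 2 was the lowest. The groups differed by -1.22 (SE 0.67, limma adjusted p = 0.551). Gsta4, which conjugates the lipid peroxidation product hydroxynonenal, was at 8.02, 8.29 and 8.31 in the controls and at 6.91 and 8.20 in the mutants. Here it was mutant source 1 that was low, and the difference was -0.65 (SE 0.41, limma adjusted p = 0.597).

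Mgst2, a microsomal transferase, was at 10.64, 10.91 and 10.97 in the controls and at 9.86 and 10.64 in the mutants, a difference of -0.59 (SE 0.27, limma adjusted p = 0.474). Mutant source 2 met the lowest control. Gstt2, of the theta class, was at 8.21, 8.04 and 8.28 in the controls and at 8.03 and 7.52 in the mutants, a difference of -0.40 (SE 0.23, limma adjusted p = 0.57). Of the rest, Gsto1, of the omega class, differed by 0.34 and Gstk1, of the kappa class, by -0.24, each with groups that did not overlap. Gstp1, Gstt1 and Mgst3 differed by -0.13, 0.17 and -0.04 with overlap.

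The enzymes that remove superoxide and hydrogen peroxide directly overlapped between groups in all 3 genes. Cat, the peroxisomal catalase, was at 10.06, 10.93 and 11.11 in the controls and at 9.79 and 10.13 in the mutants. Mutant source 2 was above the lowest control, and the groups differed by -0.74 (SE 0.35, limma adjusted p = 0.483). The sebocyte markers averaged 10.15, 10.66 and 10.91 in the controls and 8.81 and 9.02 in the mutants. In 7 of the 10 genes both mutant sources lay below all controls, where 15.3% of all genes did. The part of sebocytes in the catalase values was not tested. The superoxide dismutases Sod1 and Sod2 differed by -0.15 and -0.09.

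Several antioxidant genes differed more between the mutant sources than between the groups. In 8 of 32 members the mutant sources were apart by more than 1 log2 unit, 25% against 16.5% of all genes. Hmox1, Srxn1, Slc7a11, Gsta4 and Txnrd1 were higher in mutant source 2, where 8.35% of all genes were. Gpx3, Gpx2 and Gsta3 were lower in it, where 8.16% of all genes were. These genes were picked from the same values, so the gaps are a description with no test, and a gap between sources of 1 genotype says nothing of the mutation.

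Mutant source 2 held 9.28 times the Hmox1 signal of mutant source 1, a log2 gap of 3.21. Its 4 arrays ran from 13.83 to 14.05 and the 3 arrays of mutant source 1 from 10.58 to 11.00, so the arrays of a source were far closer than the sources. Srxn1 differed 5.84-fold between the mutant sources, with log2 gaps of 2.55, 2.54 and 2.47 on its 3 probes. The gaps were 1.46 for Slc7a11, 1.30 for Gsta4 and 1.02 for Txnrd1, the last just inside the limit of 1 and with an array SD of 0.27. On the other side, mutant source 2 held 0.228 of the Gpx3 signal of mutant source 1, a log2 gap of -2.13, and the gaps were -1.39 for Gpx2 and -1.31 for Gsta3. Just outside the limit were Mgst2, at 0.78, and Prdx2, at -0.65.

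**Figure D3:**
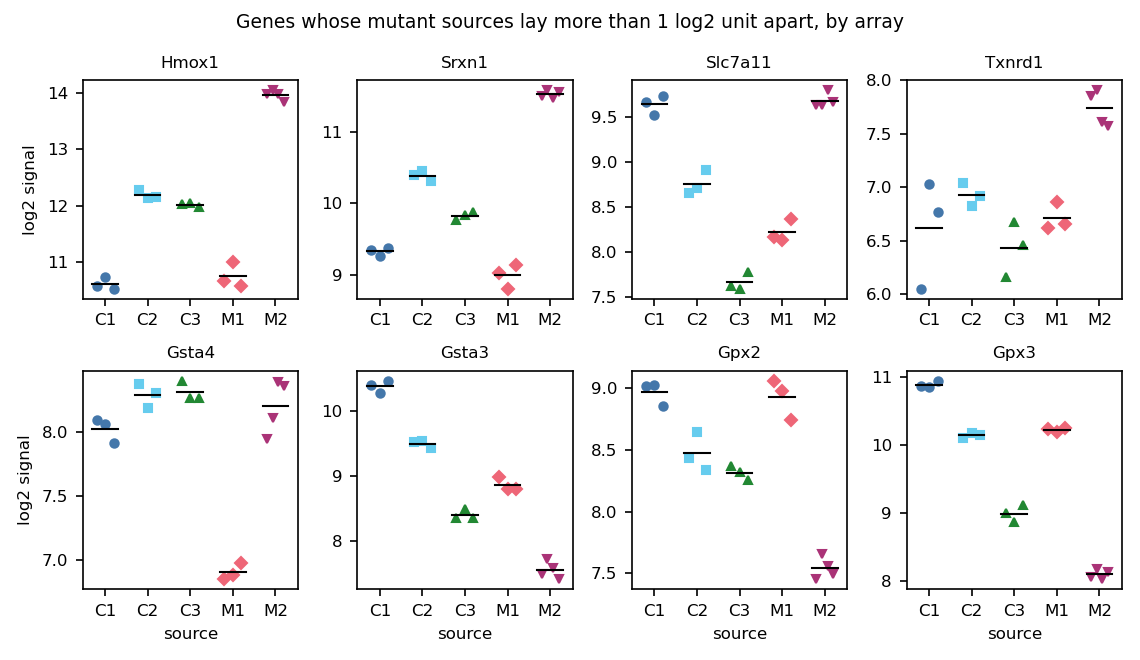
Normalised log2 signal on each array, by source, for the 8 antioxidant genes whose mutant sources were more than 1 log2 unit apart. Arrays of a source sit together, as for Hmox1, where mutant source 2 runs from 13.83 to 14.05 and mutant source 1 from 10.58 to 11.00.

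The control sources also differed in these genes. Control sources 1 and 3 were apart by more than 1 log2 unit in 5 of 32 members, 15.6% against 9.12% of all genes: Gsta3, Slc7a11, Gpx3, Cat and Hmox1. Control sources 1 and 2 were so in 2 members, Srxn1 and Hmox1, and control sources 2 and 3 in 3 members, Gsta3, Slc7a11 and Gpx3. The background was 2.53% and 1.86% of all genes for those pairs.

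The group difference of these genes depends on which mutant source is kept. Without mutant source 1 the log2 difference was 2.35 for Hmox1, 1.69 for Srxn1 and 1.00 for Slc7a11, and without mutant source 2 it was -0.86, -0.86 and -0.46. For Gpx3 the values were -1.91 and 0.22, and for Gpx2 -1.05 and 0.34. Gclc and Gstm1 kept their side, with 0.63 and 0.85 for Gclc and -0.39 and -0.63 for Gstm1. This was fixed in advance, since both mutant sources of Gclc and Gstm1 lay on 1 side of all controls. The other genes were picked for their gap, so the contrast is no test. The scatter of group difference against the gap between the mutant sources places Hmox1, Srxn1 and Gpx3 far along the gap axis and Gclc and Gstm1 near zero on it.

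**Figure D4:**
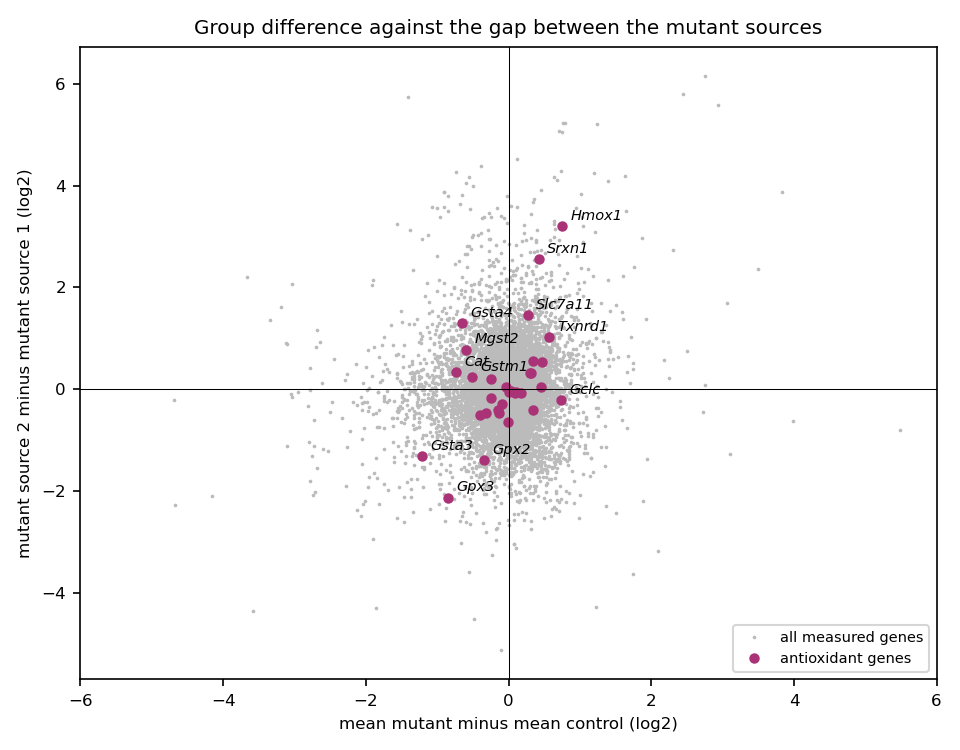
Each measured gene by its log2 difference between group means (horizontal) and its log2 gap between mutant source 2 and mutant source 1 (vertical), with the 32 antioxidant genes in colour over all 10013 genes in grey. Hmox1 lies at 0.75 and 3.21 and Gpx3 at -0.85 and -2.13, while Gclc lies at 0.74 and -0.22.

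The promoters of genes with a gap and of genes without one are shown together, because Nrf2 and its small Maf partners bind a short element and these members differed in how their sources behaved. The sequences are from RefSeq on build GRCm38.p6, plus strand, 250 bases ending just before the annotated start. Capitals mark matches, on either strand, to TGACNNNGC, the core of the antioxidant response element, or to TGANTCA, the site of AP-1 proteins. Srxn1 (chr2:152105274-152105523) and Txnrd1 (chr10:82858956-82859205, 1 of its 3 annotated promoters) were higher in mutant source 2. Gsta3 (chr1:21240335-21240584) was lower in it. Gclm (chr3:122245307-122245556) and Prdx1 (chr4:116685349-116685598) were within 1 log2 unit between the mutant sources.
Srxn1: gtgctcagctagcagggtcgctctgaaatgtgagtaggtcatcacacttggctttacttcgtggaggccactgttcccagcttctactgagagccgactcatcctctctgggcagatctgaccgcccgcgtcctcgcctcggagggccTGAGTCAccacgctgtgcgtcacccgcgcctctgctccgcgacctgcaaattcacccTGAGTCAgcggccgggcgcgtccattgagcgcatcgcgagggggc
Txnrd1: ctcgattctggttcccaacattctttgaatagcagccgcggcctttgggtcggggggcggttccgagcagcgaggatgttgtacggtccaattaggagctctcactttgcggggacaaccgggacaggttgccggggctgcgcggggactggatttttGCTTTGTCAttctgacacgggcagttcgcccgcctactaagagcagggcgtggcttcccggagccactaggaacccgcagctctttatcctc
Gsta3: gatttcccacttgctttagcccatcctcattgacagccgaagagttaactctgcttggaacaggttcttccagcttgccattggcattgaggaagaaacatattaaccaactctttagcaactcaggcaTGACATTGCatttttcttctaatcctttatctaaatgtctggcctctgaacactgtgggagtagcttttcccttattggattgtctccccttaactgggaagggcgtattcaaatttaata
Gclm: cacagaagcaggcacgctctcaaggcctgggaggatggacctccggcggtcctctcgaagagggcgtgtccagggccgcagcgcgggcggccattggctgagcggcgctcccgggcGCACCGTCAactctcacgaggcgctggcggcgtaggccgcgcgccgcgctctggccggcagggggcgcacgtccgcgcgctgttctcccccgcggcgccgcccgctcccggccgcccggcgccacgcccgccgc
Prdx1: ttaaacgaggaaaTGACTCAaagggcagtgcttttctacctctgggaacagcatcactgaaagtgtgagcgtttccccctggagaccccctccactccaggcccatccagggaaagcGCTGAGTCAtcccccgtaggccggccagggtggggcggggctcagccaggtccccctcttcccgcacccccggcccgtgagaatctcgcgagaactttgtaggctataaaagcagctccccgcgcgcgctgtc

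The 5 windows were picked among members with a match. Of the other genes with a gap, Hmox1 and Gsta4 had no promoter sequence, and the promoters of Slc7a11, Gpx2 and Gpx3 hold neither motif. Those of Keap1 and Nqo1 hold neither motif as well. Only 250 bases before to 50 after each start were searched, so a match further away would be missed. In Prdx1 the 2 motifs overlap in 1 match. Counting 250 bases before to 50 after the start, 31 of the 37 members had a promoter in the table, 38 promoters in all, and TGACNNNGC was in 10 of them (26.3%) against 12.4% of all 32851 promoters. TGANTCA was in 5 of them (13.2%) against 7.81%. The promoters with TGACNNNGC include that of G6pdx and 1 of Pgd, genes that were not measured on the arrays. In Srxn1 the only TGACNNNGC match lies at base 28 after the start, outside the stretch printed, and its 2 TGANTCA matches lie before the start. A match is a run of letters and no evidence of binding.

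Markers of several cell types also differed between the mutant sources. Of the suprabasal keratinocyte list, 5 of 6 genes were measured. The list averaged 11.27, 12.35 and 12.80 in the controls, 10.73 in mutant source 1 and 13.30 in mutant source 2. Of its 5 genes, 4 were higher in mutant source 2 by more than 1 log2 unit, where 8.35% of all genes were. The summed level of the list was 15.68 to 16.30 in the controls and 15.30 and 16.55 in the mutants. Hmox1 and Srxn1 were likewise highest in mutant source 2. Across the controls both were lowest in source 1, as the list was, but highest in source 2, where the list was highest in source 3. Slc7a11, at 9.68 in mutant source 2, was barely above control source 1. Across control sources 1, 2 and 3 it went down, from 9.64 to 7.66, where the suprabasal list went up. Txnrd1 was highest in mutant source 2, and Gsta4 was not, at 8.20 against 8.29 and 8.31 in control sources 2 and 3. The 7 basal keratinocyte markers were close to level, at 13.98 to 14.16 in the controls and 13.88 and 14.16 in the mutants.

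The T cell list averaged 10.34, 9.46 and 8.87 in controls 1, 2 and 3 and 8.39 and 6.88 in the mutants. In 6 of its 7 measured genes both mutant sources lay below all controls, where 15.3% of all genes did. For 1 of the 6, Cd3d, the gap of 0.11 was less than the array SD of 0.2. Melanocyte markers averaged 9.85, 9.45 and 8.89 in the controls and 8.96 and 7.73 in the mutants. Gpx3, Gpx2 and Gsta3 took the same order of the control sources and were also lowest in mutant source 2. The hair shaft list was lowest in mutant source 2 too, at 6.61 against 7.15 in mutant source 1. It averaged 9.07, 7.95 and 8.74 in controls 1, 2 and 3, another order. The summed level of the T cell list was 13.87 to 14.60 in the controls and 13.45 and 13.71 in the mutants, and that of the melanocyte list 12.28 to 13.84 and 11.32 and 13.08. All 8 measured macrophage genes, of 10 listed, were lower in mutant source 2 by more than 1 log2 unit, against 8.16% of all genes. The macrophage genes averaged 11.35 and 9.54 in the mutants and 9.12, 10.88 and 11.51 in controls 1, 2 and 3. Their summed level was 12.39 to 14.76 in the controls and 14.97 and 13.08 in the mutants. Between the mutant sources this list thus went with Gpx3, Gpx2 and Gsta3, and across the controls it went the other way. The part of any of these cell types in the antioxidant values was not tested.

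Markers of cells outside the epidermis were present in all sources. Of the endothelial list 8 of 10 genes were measured, at 11.36 to 12.35 in the controls and 10.85 and 10.93 in the mutants, and the 6 measured fibroblast genes averaged 11.56 to 11.70 and 11.07 to 11.56. Whether the RNA came from sorted cells or from whole skin was not settled by these values.

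**Figure D5:**
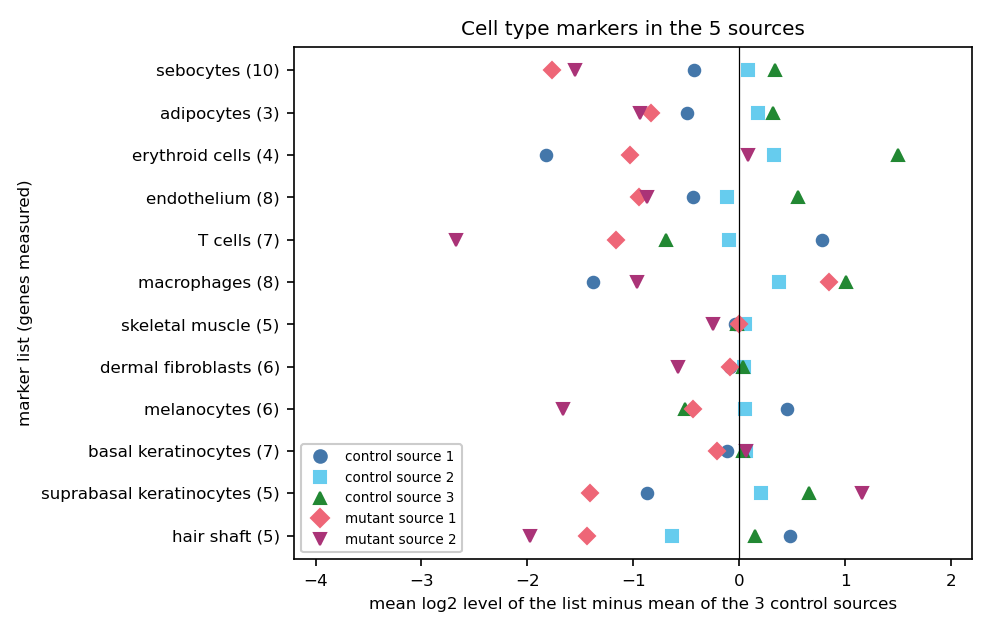
Mean log2 level of each cell type marker list in each source, minus the mean of the 3 control sources. Suprabasal keratinocyte markers lie on opposite sides of the controls in the 2 mutant sources, with means of 10.73 and 13.30, and sebocyte markers lie below the controls in both.

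Beyond the list, 68 of 79 other genes of glutathione turnover, thioredoxin recycling and the Nrf2 response were measured, and 0 passed the test with limma. At an unadjusted p below 0.05, 3 were higher and 12 lower, where 4.89% and 7.33% of all genes were. Both mutant sources were above the controls in 6 genes (8.82% against 14.1% of all genes) and below in 15 (22.1% against 15.3%). All mutant arrays were above all control arrays in 1 gene (1.47% against 5.74%) and below in 11 (16.2% against 7.36%). The median difference was -0.059.

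On the lower side, Txnip, the inhibitor that binds thioredoxin, was at 13.85, 13.97 and 14.43 in the controls and at 12.57 and 12.90 in the mutants, a difference of -1.35 (limma adjusted p = 0.207). The groups were apart by 0.94 log2 units. Msrb2, a mitochondrial methionine sulfoxide reductase, differed by -1.25 (limma adjusted p = 0.236). Mgst1, a microsomal transferase, differed by -1.07 (limma adjusted p = 0.321) and Nfe2l3, an Nrf2 relative, by -1.04 (limma adjusted p = 0.300).

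On the higher side, Chac1, which breaks down glutathione, differed by 1.65 but only through mutant source 2: it was at 8.17, 9.21 and 9.36 in the controls, at 8.81 in mutant source 1 and at 12.31 in mutant source 2. Akr1b8, an aldo-keto reductase, was at 7.46, 7.77 and 7.72 in the controls and at 8.27 and 9.18 in the mutants, a difference of 1.08 (limma adjusted p = 0.321) with both mutant sources above. Ggt5, of the gamma-glutamyl transferase family, differed by 0.86 (limma adjusted p = 0.308) with both mutant sources above the controls. Gsto2 differed by 0.59 and also only through mutant source 2: it was at 7.17 to 7.56 in the controls, at 7.08 in mutant source 1 and at 8.80 in mutant source 2.

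Among these other 68 genes, 10 were higher in mutant source 2 by more than 1 log2 unit, where 8.35% of all genes were. Only 1, Selenow, was lower, where 8.16% of all genes were. Together they were 16.2% of 68, against 16.5% of all genes with such a gap. Over all genes the gaps were nearly as many each way, 836 higher and 817 lower. The widest gaps were 3.60 for Gsta1 and 3.40 for Gsta2, alpha-class transferases whose probes may not tell the close copies apart, and 3.50 for Chac1. The autophagy adaptor and Nrf2 target Sqstm1 had a gap of 2.08. These genes were picked after their values were seen.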

How the data were processed

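RNA from 7 mutant and 9 control samples was hybridised to Illumina bead arrays. The authors deposited, for each probe and array, a raw intensity and a detection p-value, exported with GenomeStudio per the submitters' processing notes, and a table of normalized intensity. The genome build behind the array's annotation was not given in the sources used here.

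Raw intensities were corrected for background with limma 3.58.1 (R 4.3.3), using control values inferred from the detection p-values and an offset of 16, then quantile normalized and log2 transformed. Probes with detection p below 0.05 on at least 7 arrays were kept (14504 of 25697, covering 10013 genes). Arrays of 1 source, defined by a correlation above 0.99 within a group, were averaged, and limma's lmFit and trended eBayes (residual degrees of freedom 3, prior 2.53) were fitted to 2 mutant and 3 control sources, with Benjamini-Hochberg adjustment over all probes. A gene was read from its probe with the highest mean. The number of sources limits the precision.

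Values in every source are given for the members with the 14 largest absolute differences and for Nfe2l2, Keap1, Gclc, Gclm, Nqo1, Hmox1, Gpx4 and Txnrd1, and the 4 largest differences each way are named from the wider list. Slc7a11, the Prdx2 probes, Gpx7 and Gpx8 were added after their values were seen. The members and all lists, tests and alternatives were chosen with earlier results of these data known. Alternatives changed the background, the scaling, the filter, the slides and the unit of replication, and left out arrays and sources.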

Additional observations from a re-analysis of the deposited data

Results flagged for a closer look

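Of 64 checks of a gene within a group for an array far from the others, 1 met the criterion. Chance flags about 1 in 20 groups of independent arrays, a rate that need not hold here, since the arrays of a group are repeats of 2 or 3 sources. Mgst3 was at 12.51 in mutant replicate 3, with the nearest of the other 6 mutant arrays at 12.60 and the highest at 12.66. The distance to the nearest array was a share of 0.62 of the whole range. The gap is small beside the largest differences of the named genes, such as -1.22 for Gsta3. It is not small beside the smallest, such as 0.04 for Gstm2.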

How the results depend on the processing

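Over all probes, 8 passed the test. The number was 0 without background correction, with an offset of 50, with the authors' table, with 75th percentile scaling, within slide 1 and within slide 2, and it was 1 with cyclic loess and 4 without a filter. It was 331 with slide blocks plus a random source block, 883 with 16 arrays and a random source block, and 4914 with 16 arrays as separate samples. Leaving out a source or an array gave 0 to 8. It was 0 without any 1 of the 5 sources and without control arrays 2, 4 or 6. Of the members, 0 passed in the main fit and 15 passed with 16 separate arrays (7 higher, 8 lower, against 34.0% of all genes), a fit that counts repeat arrays of a source as samples. The sample numbers in the titles do not pair the samples (of 7 pairs, 3 correlated above 0.1 and 2 best with their own number), and a fit with this number as a replicate block called 3395 probes, 13 of 32 members and 17 of 68 wider genes, against 23.7% of all genes. The wider genes called were 6 of 68 with the slide block (2.55% of all genes), 10 with the random source block (6.81%), 26 with separate arrays (34.0%) and 0 in the main fit. Members above all controls numbered 2 with the slide block, against 8.47% of all genes, and 1 in each fit of 16 arrays, against 5.74%. They numbered 6 to 12 when a source or array was left out, against 13.9% to 37.8% of all genes. Members below numbered 3 with 75th percentile scaling (15.2% of all genes), 8 within slide 1 (14.5%) and 3 within slide 2 (15.1%). With the slide block and in each fit of 16 arrays 1 member was below, against 10.1% and 7.36% of all genes. Members below numbered 4 to 12 when a source or array was left out. They were 12 when mutant source 1 was dropped (38.9% of all genes) and 10 when mutant source 2 was (34.5%). Without control source 1 they were 8 (20.1% of all genes). With 1 mutant source left, more genes of all kinds lay clear of the controls. The members' median of -0.003 was 0.056 with 75th percentile scaling and ran from -0.064 without control source 3 to 0.055 without mutant source 2. Gab1 differed by -1.03 with the slide block (limma adjusted p = 0.013), -0.99 with separate arrays (adjusted p = 3.8e-06), -1.03 with the random source block (adjusted p = 0.000229) and -1 with the replicate block (adjusted p = 0.00076). The cause of the other changes was not tested. Added after seeing the data, the gap between the mutant sources over 7 value alternatives was 3.12 to 3.40 for Hmox1, 2.29 to 2.65 for Srxn1, -2.18 to -1.73 for Gpx3 and 0.56 to 1.14 for Txnrd1, which thus does not always pass 1. The difference of the faintest Prdx2 probe was -1.70 in the main fit and -1.23 with an offset of 50. It was -0.75 without background correction and in the authors' table. The cause of this change was not tested.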
